A study of Rattus norvegicus with 12 samples.

Results

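Thioredoxin-interacting protein (Txnip) and the arrestin-domain-containing proteins Arrdc1, Arrdc2, Arrdc3 and Arrdc4 were followed in rat epididymal fat through a long fast. These 5 genes were taken by symbol from the platform annotation of the array, and they are 5 of the 14506 genes that could be tested. Each of them lay on exactly 1 probe set that names 1 gene, so no choice between probe sets was needed. The probe sets were 10817552 for Txnip (Entrez gene 117514), 10843308 for Arrdc1 (366001), 10787435 for Arrdc2 (306344), 10834022 for Arrdc3 (309945) and 10722720 for Arrdc4 (293019).

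The study measured RNA from the epididymal white adipose tissue, a visceral fat pad, of 12 Sprague-Dawley rats, all male. Each rat was given its own array of the Affymetrix type Rat Gene 1.0 ST. Of the rats, 4 were fed, 4 were fasted until phase 2 and 4 were fasted until phase 3. In phase 2 of a prolonged fast body fat is the main fuel and protein is spared, and in phase 3 the use of body protein increases. All 3 groups were of 1 strain and 1 sex, with no transgene and no drug named. The age of the rats and the length of the fasts are not given in the sources used here. Every sample of a group is a different rat, which makes the spread behind each p-value the one between animals. Values are deposited log2 levels, on which a step of 1 is a doubling, and levels of different probe sets are not ranked against each other. Olfactory receptor genes serve only as a rough guide to background signal. A change here is the mean of a group minus that of another, in log2 units, and its error is the model's standard error (SE). A gene was called when limma gave an adjusted p below 0.05 (Benjamini-Hochberg over 14506 genes).

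Arrestins are scaffold proteins with paired arrestin folds that link membrane proteins to the cell's uptake and ubiquitin machinery. The alpha-arrestins are the older branch of this family. The Arrdc proteins carry PPxY motifs through which they bind ubiquitin ligases of the NEDD4 family, and so mark membrane receptors and transporters for internalisation or sorting. Txnip is best known for binding the redox protein thioredoxin and for lowering glucose uptake through the transporters GLUT1 and GLUT4. Transcription of Txnip and Arrdc4 is a classic readout of the glucose-sensing factors MondoA (Mlxip) and ChREBP (Mlxipl), and glucocorticoids and FOXO factors are also known inducers of genes of this family.

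The promoters of the genes show how far the members share known control letters. RefSeq gave a window of 300 bases, from 250 before to 50 after the gene start on assembly GRCr8, for 4 of the 5 members, namely Arrdc1, Arrdc2, Arrdc3 and Arrdc4. The windows of Arrdc3 and Arrdc2, whose RNA rose, and of Arrdc4, whose RNA did not pass the test, are printed from 5′ to 3′ on the strand of the gene. Capitals mark matches to CACGTG, the E-box core bound by MondoA, ChREBP and Myc-type factors, and to CCAAT or its reverse complement ATTGG, the box bound by NF-Y. The window of Arrdc3 lies at chr2:12872952-12873251 on the plus strand, that of Arrdc2 at chr16:18635633-18635932 on the plus strand and that of Arrdc4 at chr1:131793376-131793675 on the minus strand.
Arrdc3: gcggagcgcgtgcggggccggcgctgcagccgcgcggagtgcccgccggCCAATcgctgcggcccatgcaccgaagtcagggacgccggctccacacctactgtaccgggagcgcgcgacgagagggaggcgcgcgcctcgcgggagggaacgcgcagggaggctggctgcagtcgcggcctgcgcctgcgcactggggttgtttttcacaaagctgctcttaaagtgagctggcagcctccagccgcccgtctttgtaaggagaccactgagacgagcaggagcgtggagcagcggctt
Arrdc2: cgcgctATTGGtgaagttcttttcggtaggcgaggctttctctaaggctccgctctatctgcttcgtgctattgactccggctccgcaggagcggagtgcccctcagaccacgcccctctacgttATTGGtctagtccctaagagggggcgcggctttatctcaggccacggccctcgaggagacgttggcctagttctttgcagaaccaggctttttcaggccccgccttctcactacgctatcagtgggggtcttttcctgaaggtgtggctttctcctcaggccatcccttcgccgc
Arrdc4: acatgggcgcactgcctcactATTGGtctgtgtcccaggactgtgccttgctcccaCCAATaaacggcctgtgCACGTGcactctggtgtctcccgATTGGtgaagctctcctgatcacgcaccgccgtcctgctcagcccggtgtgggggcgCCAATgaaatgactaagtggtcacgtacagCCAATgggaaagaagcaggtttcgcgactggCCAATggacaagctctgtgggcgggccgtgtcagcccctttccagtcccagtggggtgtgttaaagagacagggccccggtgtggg

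The Arrdc4 window held 1 E-box, starting 177 bases before the gene start, and 6 CCAAT boxes, which start 229, 194, 154, 97, 67 and 36 bases before it. Of all 33469 windows of the same length, 6.42% held at least 1 E-box, searched on both strands. A CCAAT box was in 37.5% of windows, at least 2 were in 11.2%, and 6 or more were in 14 windows (0.0418%). The cut of 6 is the Arrdc4 count itself, so this last share is no test of that window. The Arrdc2 window held 2 CCAAT boxes, both on the opposite strand, at 244 and 125 bases before the start, and the Arrdc3 window held 1, at 201 bases before it. The Arrdc1 window, at chr3:28140198-28140497 on the minus strand, held none of the motifs searched. G and C made up 68.3% of the Arrdc1 window and 58.3% of the Arrdc2 window, against a median of 51.7% over all windows.

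The other 4 motifs were not found in any of the 4 windows. They were 1 form of the paired E-box to which ChREBP binds, CACGNG repeated after 5 bases (in 0.0359% of all windows), and the FOXO site TGTTTAC (3.78%). Other forms of the paired E-box were not searched. The glucocorticoid receptor palindrome, AGAACA and TGTTCT set 3 bases apart, was in 0.0149% of windows, and the PPAR repeat, AGGTCA repeated after 1 base, in 0.0538%. E-box matches can overlap the paired form. A match describes letters in these 300 bases, and binding was not measured.

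Txnip RNA rose in both phases of the fast. Its log2 level was 12.57, 12.31, 12.28 and 12.23 in fed rats 1 to 4, 13.26, 13.27, 13.22 and 13.26 in the phase 2 rats, and 13.47, 13.42, 13.36 and 13.47 in the phase 3 rats. Every fasted rat lay above every fed rat, and every phase 3 rat lay above every phase 2 rat. The group means were 12.35 ± 0.152 (SD, n = 4) in fed rats, 13.25 ± 0.0198 in phase 2 and 13.43 ± 0.0515 in phase 3. Phase 2 was higher than fed by 0.90 ± 0.0806 (SE; 95% interval 0.73 to 1.08), 1.87-fold, with a limma adjusted p of 3.18e-06 by Benjamini-Hochberg. Phase 3 was higher than fed by 1.08 ± 0.0806 (0.91 to 1.25), 2.11-fold (adjusted p = 8.95e-08). The step from phase 2 to phase 3, 0.17 ± 0.0806, did not pass the test (adjusted p = 0.128), although the values of both groups do not overlap. With each array centred on its median this step was 0.26 and passed (0.0207).

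The fed level of Txnip was already high on the array. The highest probe set of each array read between 13.915 and 14.0179, and the phase 3 rats had Txnip between 13.36 and 13.47. How far this nearness to the top of the scale bears on the size of the rise from phase 2 to phase 3 was not tested.

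Arrdc3 rose in both steps of the fast, and its change was the largest of the 5 genes in each of the 3 comparisons, although in phase 2 it was not told apart from that of Txnip. Arrdc3 is an adaptor that, with NEDD4-type ligases, takes beta-adrenergic receptors, the receptors for catecholamines that drive fat breakdown, to endosomes. Its level was 9.82, 9.67, 9.94 and 9.68 in fed rats 1 to 4, 10.98, 11.31, 10.55 and 10.94 in the phase 2 rats, and 12.39, 12.52, 12.39 and 12.52 in the phase 3 rats. The 3 groups do not overlap, with phase 2 between the other groups and more spread out than either. The means were 9.78 ± 0.128 (SD, n = 4), 10.95 ± 0.311 and 12.45 ± 0.0745. Phase 2 exceeded fed by 1.17 ± 0.129 (SE; 0.89 to 1.44), 2.25-fold, with a limma adjusted p (Benjamini-Hochberg) of 2.00e-05. Phase 3 exceeded fed by 2.68 ± 0.129 (2.40 to 2.95), 6.39-fold (adjusted p = 1.57e-09), and phase 2 by 1.51 ± 0.129, 2.85-fold (adjusted p = 1.59e-06). In absolute size the phase 3 change from fed was greater than that of 99.36% of the genes tested. For Txnip that share was 96.19% in phase 2 and 91.7% in phase 3.

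Arrdc2 rose by phase 3. It is a less studied relative with the same arrestin folds and PPxY motifs. Its level was 6.44, 6.60, 6.68 and 6.65 in fed rats 1 to 4, 6.91, 6.66, 6.91 and 6.94 in the phase 2 rats, and 6.85, 7.12, 7.39 and 7.06 in the phase 3 rats. Phase 2 rat 2 lay among the fed rats, while the phase 3 rats all lay above them. The means were 6.59 ± 0.106 (SD, n = 4), 6.86 ± 0.129 and 7.10 ± 0.221. The phase 3 mean was higher than fed by 0.51 ± 0.109 (SE; 0.28 to 0.75), 1.43-fold (limma, Benjamini-Hochberg adjusted p = 0.0014). Phase 2 was 0.27 ± 0.109 above fed without passing the test (adjusted p = 0.0949), and it passed with the arrays centred on their medians (0.0409), with only these 2 groups in the fit (0.0366) and without phase 3 rat 3 (0.0406). The difference of 0.25 ± 0.109 between phase 3 and phase 2 did not pass either (adjusted p = 0.111), but it did with centred arrays (0.0314) and without phase 3 rat 1 (0.0305).

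Arrdc1 was the member that fell. The protein recruits the ESCRT component Tsg101 to the plasma membrane and so drives the release of small vesicles. Its level was 8.02, 7.83, 7.92 and 7.87 in fed rats 1 to 4, 7.61, 7.59, 7.58 and 7.64 in the phase 2 rats, and 7.58, 7.61, 7.77 and 7.71 in the phase 3 rats. All fasted rats lay below all fed rats, and the values of both fasted groups overlap. The means were 7.91 ± 0.0816 (SD, n = 4), 7.60 ± 0.0241 and 7.67 ± 0.0915. Phase 2 was lower than fed, with a change of -0.30 ± 0.0732 (SE; -0.46 to -0.15), 1.24-fold lower (limma, Benjamini-Hochberg adjusted p = 0.00712). The phase 3 change of -0.24 ± 0.0732 (-0.40 to -0.08), 1.18-fold lower, passed as deposited (adjusted p = 0.0153). It did not pass with centred arrays (-0.08, adjusted p = 0.328), after quantile normalisation (-0.16, adjusted p = 0.106) or without fed rat 1 (-0.20, adjusted p = 0.0562). Phase 3 minus phase 2 was 0.06 ± 0.0732 (adjusted p = 0.563).

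Arrdc4, the relative that shares MondoA control with Txnip, did not pass the test in any comparison. Its level was 7.85, 8.10, 7.68 and 7.62 in fed rats 1 to 4, 8.07, 8.03, 8.24 and 7.74 in the phase 2 rats, and 7.63, 7.72, 7.95 and 7.82 in the phase 3 rats. The 3 groups overlap. The means were 7.81 ± 0.218 (SD, n = 4), 8.02 ± 0.209 and 7.78 ± 0.137. Phase 2 minus fed was 0.21 ± 0.125 (SE; 95% interval -0.06 to 0.48), with a limma adjusted p of 0.267 (Benjamini-Hochberg). Phase 3 minus fed was -0.04 ± 0.125 (-0.30 to 0.23), with an adjusted p of 0.836, and its sign turned with centred arrays (0.12) and after quantile normalisation (0.04). Phase 3 minus phase 2 was -0.24 ± 0.125 (adjusted p = 0.172). The phase 2 interval holds the value seen for Arrdc2 (0.27), and the phase 3 interval holds that seen for Arrdc1 (-0.24).

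**Figure D1:**
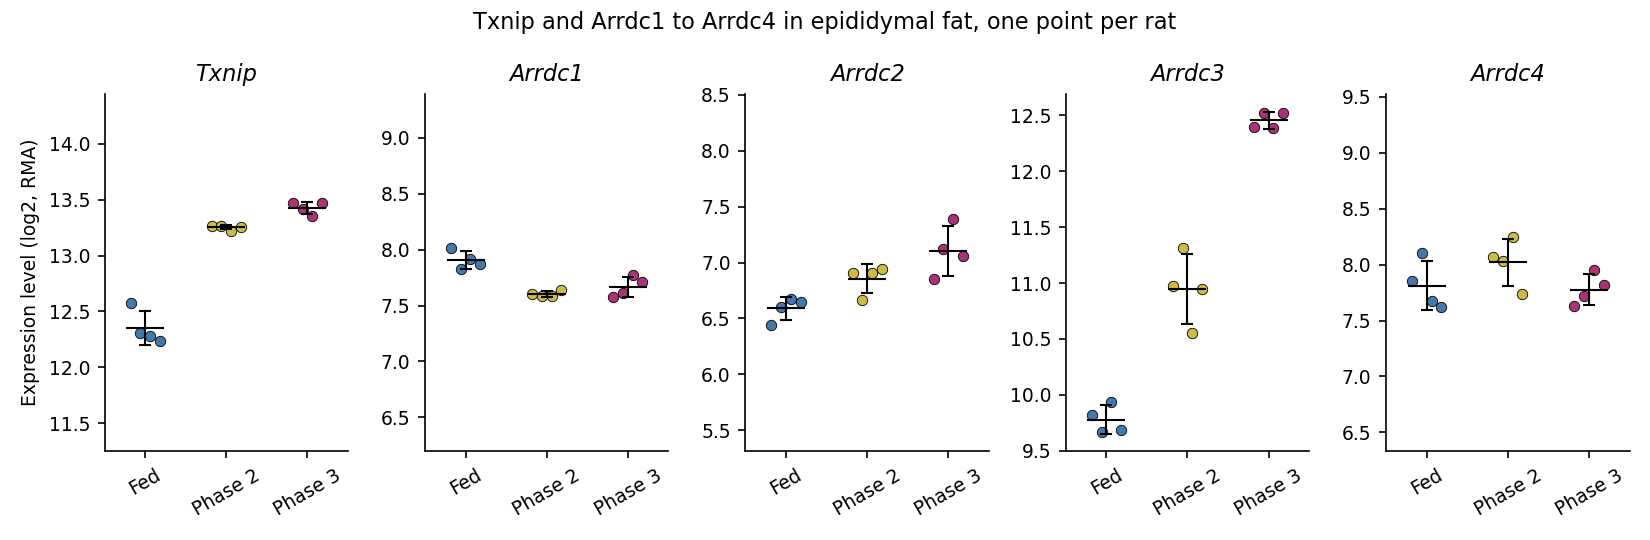
Log2 level of each of the 5 genes by group (fed, phase 2, phase 3); each point is 1 rat, and the dash with its bar is the group mean ± SD (n = 4). All panels span the same number of log2 units: the groups stand apart for Txnip and Arrdc3 and overlap for Arrdc4.

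Of the 5 members, 2 rose and 1 fell in phase 2 against fed, where 25.2% of all genes tested were called (9.66% higher and 15.5% lower). In phase 3 against fed 3 rose and 1 fell, where 45.4% of genes were called (21.1% higher and 24.3% lower). Between phase 2 and phase 3 only Arrdc3 was called, as higher, by limma with Benjamini-Hochberg adjustment, against 27.9% of all genes (12.8% higher and 15.1% lower). In that comparison Txnip and Arrdc2 were also higher at an unadjusted p below 0.05, which makes 3 of 5, and no member was lower. With 5 members, shares of this kind are coarse. The median change of the 5 was 0.27, 0.51 and 0.17 in the 3 comparisons, against 0.01, 0.05 and 0.03 for all genes. Centring each array on its median moved the split of all called genes: the share of calls that were higher was 38.39% as deposited and 53.05% when centred for phase 2 minus fed. It was 46.53% and 69.61% for phase 3 minus fed, and 45.8% and 64.92% for phase 3 minus phase 2. The mean array median over the tested genes fell by 0.155 from fed to phase 3, so a small change such as that of Arrdc1 in phase 3 depends on this choice.

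**Figure D2:**
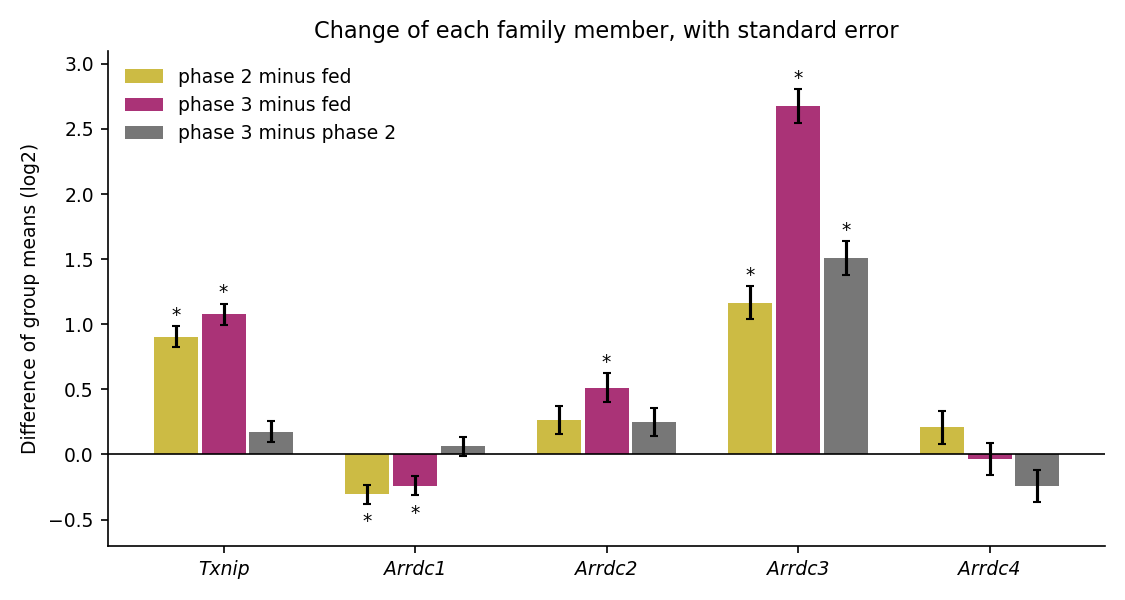
Change of each gene in log2 units for phase 2 minus fed, phase 3 minus fed and phase 3 minus phase 2; bars are ± SE and a star marks an adjusted p below 0.05. Arrdc3 is starred in all 3 comparisons, Txnip and Arrdc1 in both comparisons with fed, Arrdc2 in phase 3 minus fed, and Arrdc4 in none.

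Whether the members changed by different amounts was tested on the difference between their log2 values within each rat. Each of the 10 pairs was compared in each of the 3 contrasts with a two-sided exact permutation test over 4 against 4 rats (70 arrangements, smallest possible p 0.0286), and p-values were adjusted over the 30 tests. Of these, 20 passed: 7 in phase 2 against fed, 8 in phase 3 against fed and 5 in phase 3 against phase 2. The passing tests all lie at the smallest possible p and share an adjusted p of 0.0429. A single test at that p could not pass the adjustment, so passing depends on how many tests reach it. Pairs share genes and contrasts share rats, so the 30 tests are not independent. The values below are differences between changes.

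Txnip and Arrdc3 rose by amounts that were not told apart in phase 2, where Txnip minus Arrdc3 was -0.26 ± 0.170 (exact permutation p = 0.2, adjusted p = 0.214). In phase 3 against fed the difference was -1.60 ± 0.0935, and in phase 3 against phase 2 it was -1.33 ± 0.151, and both passed the exact permutation test. The measured gain of Arrdc3 between the phases exceeded that of Txnip, whose signal lay near the top of the array scale, and the part of that limit was not tested. Txnip and Arrdc4, the pair with known MondoA control, parted in both fasted groups, with Txnip minus Arrdc4 at 0.70 in phase 2 and 1.11 in phase 3, and both passed. Arrdc2 and Arrdc4 differed by 0.06 in phase 2, which did not pass, by 0.55 in phase 3 against fed and by 0.49 between phases, which did.

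Arrdc3 was set apart from each of the other 4 genes in phase 3, against fed and against phase 2 alike. Between phase 3 and fed, Arrdc1 minus Arrdc3 was -2.91, Arrdc2 minus Arrdc3 was -2.16 and Arrdc3 minus Arrdc4 was 2.71. Txnip minus Arrdc2 passed in phase 2, at 0.64, and not in phase 3, at 0.56 (exact permutation, adjusted p = 0.0745). The falling Arrdc1 could not be told apart from Arrdc4, with differences of -0.51 in phase 2 (exact permutation, adjusted p = 0.0745) and -0.20 in phase 3 (0.165).

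**Figure D3:**
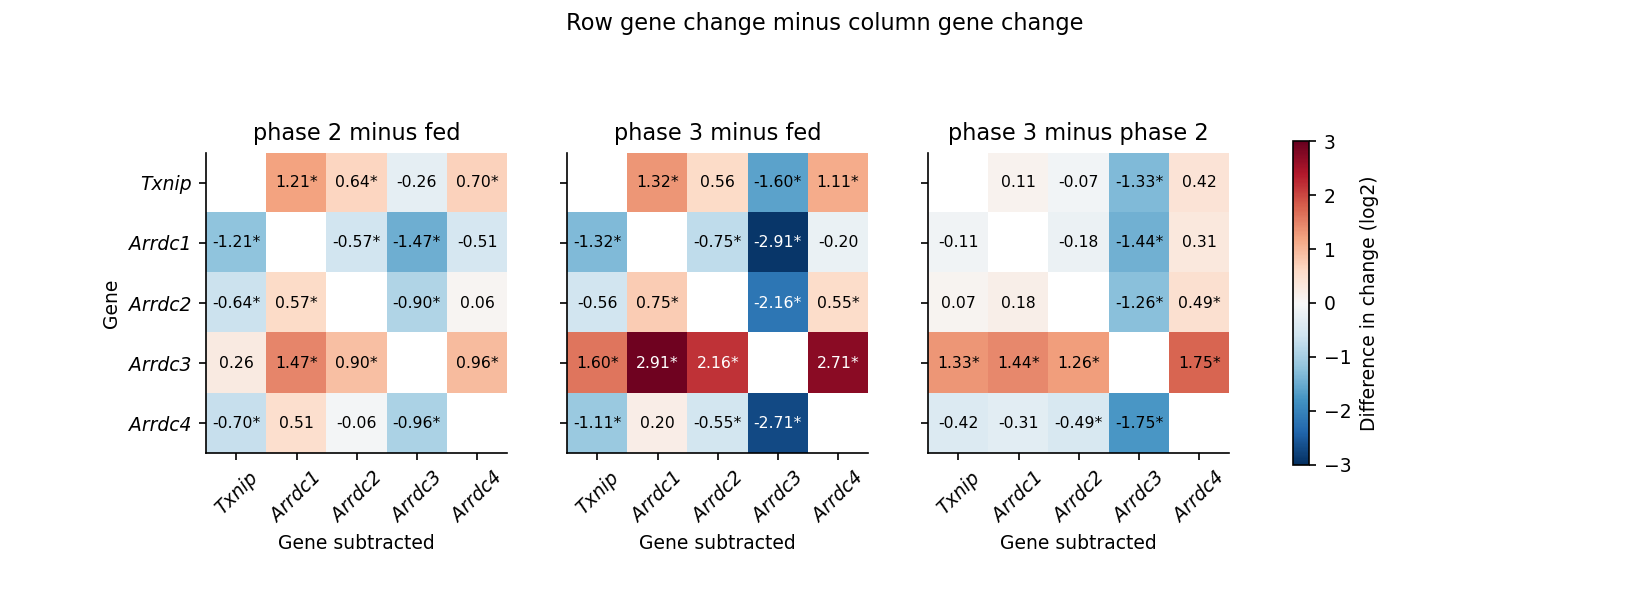
Change of the gene in the row minus change of the gene in the column, in log2 units, for the 3 comparisons; a star marks an adjusted p below 0.05 by exact permutation over 30 tests. The row of Arrdc3 is starred against all other genes in both panels that hold phase 3, and Txnip and Arrdc3 are not starred in phase 2 minus fed.

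Genes whose profile was closest to each called member were found by the root mean square difference over the 12 arrays, with each gene set to a fed mean of 0. Closest to Txnip were Adgrf5 (0.103), Prkaa1 (0.106) and Adgrg1 (0.111). Adgrf5 and Adgrg1 are adhesion-type receptors, and Prkaa1 is a catalytic subunit of the energy sensor AMPK, which phosphorylates Txnip. Prkaa1 was higher by 0.94 in phase 2 and by 1.17 in phase 3. Closest to Arrdc3 were Clec1a (0.165), a C-type lectin-like receptor, Klf15 (0.242), a glucocorticoid-induced transcription factor of fasting metabolism, and the fatty acid hydroxylase Cyp4b1 (0.292). Klf15 was higher than fed by 1.24 in phase 2 and by 2.39 in phase 3. This measure takes in the size of a change as well as its direction. Txnip and Arrdc3, which rose in both phases by unequal amounts in phase 3, were 0.95 apart. Txnip and Arrdc2 were 0.53 apart, and Txnip and the uncalled Arrdc4 0.78.

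Arrdc1 lay closest to Med27 (0.0688), a subunit of Mediator, Snapc5 (0.0715), a subunit of the complex that starts snRNA transcription, and the polarity gene Llgl1 (0.0717). All 3 were called lower against fed in phase 2 and in phase 3 as deposited, and with centred arrays Llgl1 and Snapc5 lost both calls and Med27 its call in phase 3. The Llgl1 calls were also lost when fed rat 1 or fed rat 3 was left out, when phase 2 rat 2 or 3 was (in phase 2) and when phase 3 rat 1 was (in phase 3). Arrdc2 lay closest to Mt4 (0.0822), Vom1r36 (0.0855) and Slc7a3 (0.106), whose fed means of 4.46, 3.07 and 4.30 lie in the range of 53 olfactory receptor genes on the same arrays (mean 3.76, highest 6.03), genes that fat is not known to use. The fed mean of Arrdc2, 6.59, was above that range. The median change of these olfactory receptor genes from fed to phase 3 was 0.07, with 7 of them called higher.

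The measured factors known to control these genes moved in different directions. Mlxip, which encodes MondoA, was not among the genes tested. The regulator gene Mlx was not called against fed in either phase, although it passed under some of the alternatives. As for the 5 genes, the counts of each list stand beside 25.2% of all genes called in phase 2 against fed and 45.4% in phase 3. Of 16 measured regulators of the family, 5 were called higher and 2 lower in phase 2 against fed, and 7 higher and 5 lower in phase 3, with medians of 0.02 and 0.13 against 0.01 and 0.05 for all genes. Mlxipl, which encodes the glucose sensor ChREBP, fell by 1.37 in phase 2 and by 2.01 in phase 3 (limma adjusted p = 2.56e-08, Benjamini-Hochberg). Foxo1 rose by 0.60 and 1.08 and Foxo3 by 0.51 and 1.61; both encode forkhead factors that insulin holds out of the nucleus. Nr3c1, the glucocorticoid receptor, was -0.16 in phase 2 (not called) and fell by 0.58 in phase 3. The other rises in phase 2 were those of Klf15, of Max and of Ppargc1a (0.59), and the other fall was that of Mycn. Max, Mycn and Ppargc1a were added by these counts after their values were seen, and the Ppargc1a call in phase 2 did not hold after quantile or cyclic loess normalisation, or when any fed rat but rat 2, or any phase 2 rat but rat 4, was left out. In phase 3 the falls also took in Pparg (0.80), the master factor of fat cells, Mycn (0.45) and Nfyc (0.27), a subunit of NF-Y whose call was lost with centred arrays, after quantile normalisation and without fed rat 2.

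Known targets of MondoA and ChREBP other than the family itself mostly fell. The list does not part the targets of MondoA from those of ChREBP, and it was chosen with earlier results of these data known. Of 17 measured, 10 fell and 2 rose in phase 2 (median -0.53), and 10 fell and 3 rose in phase 3 (median -0.61). The fatty acid synthase gene Fasn fell by 4.48 in phase 2 and by 5.43 in phase 3, the malic enzyme gene Me1 by 3.09 and 3.96, the transketolase gene Tkt by 1.79 and 2.25, and the citrate lyase gene Acly by 2.29 and 1.82. The 2 that rose in both phases, named after their values were seen, were Adm, the vasodilator adrenomedullin (1.19 and 1.903), and Pfkfb3, which makes the activator of phosphofructokinase (1.42 and 1.80). The third gene higher in phase 3, Khk, was at 0.34 and lost its call when any fed rat but rat 4, or any phase 3 rat but rat 2, was left out. Txnip rose in the rats in which most of this list fell, and Arrdc4 was not called. The part of MondoA and ChREBP in the values of Txnip and Arrdc4 was not tested.

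Genes known to be induced by glucocorticoids or FOXO factors in fasting mostly rose in both phases. Of the family, Txnip and Arrdc3 rose in both, Arrdc2 passed only in phase 3, Arrdc1 fell as deposited and Arrdc4 was not called. The part of glucocorticoids and FOXO factors in the changes of the 5 genes was not tested. Of 18 measured, 14 rose in phase 2 (median 1.03) and 17 rose in phase 3 (median 2.06), and none was lower by limma after Benjamini-Hochberg adjustment or at an unadjusted p below 0.05. The phase 2 count ran from 10 to 16 with 1 rat left out. In phase 2 the calls of Klf9, Fkbp5, Cited2, Errfi1 and Zbtb16 were lost under some of the alternatives. Ddit4, Dusp1, Per1 and Tsc22d3 were not called in that phase. Pdk4, the kinase that shuts pyruvate dehydrogenase, rose by 3.05 and 5.11. Trim63, a ubiquitin ligase of muscle wasting, rose by 2.31 and 6.45, the autophagy gene Gabarapl1 by 1.26 and 2.29, and the metallothionein gene Mt1 by 1.44 and 4.52. The list was written with the results of these rats known and is no independent evidence of its direction.

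**Figure D4:**
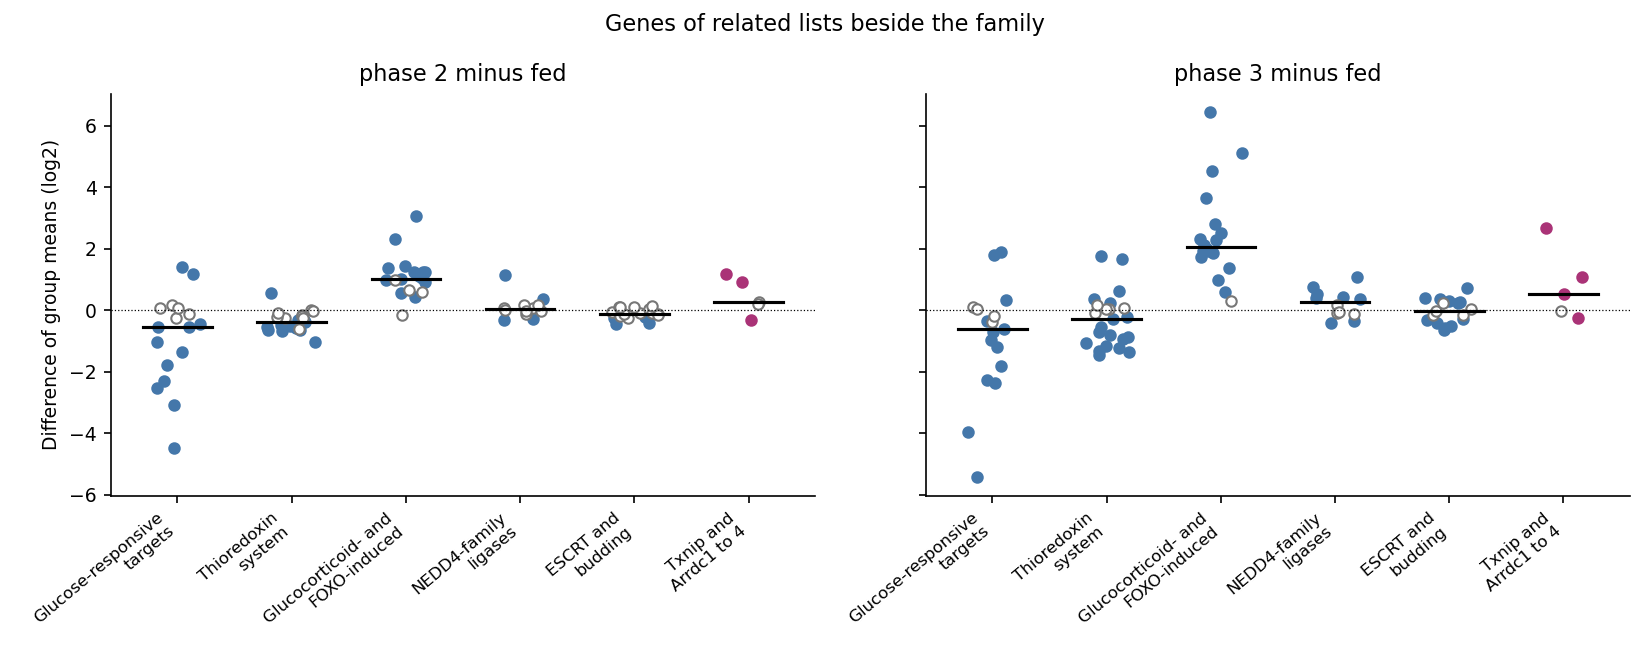
Change from fed, in log2 units, of each measured gene of 5 lists and of the 5 family members, in phase 2 and in phase 3; filled points passed the test, open points did not, and the line is the list's median. The glucose-responsive targets centre below 0 and the glucocorticoid- and FOXO-induced genes above 0 in both phases.

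The list of the thioredoxin system, the redox pathway that Txnip binds, also held glutaredoxins and sestrins, and more of its genes fell than rose. Of 23 measured genes, 13 fell and 1 rose in phase 2 (median -0.39), and 13 fell and 5 rose in phase 3 (median -0.27). The 13 falls in phase 3 became 11 with centred arrays and after quantile normalisation. Thioredoxin itself, Txn1, was -0.20 ± 0.0892 in phase 2 (limma, Benjamini-Hochberg adjusted p = 0.118) and 0.03 ± 0.0892 in phase 3 (0.787), and its reductase Txnrd1 was not called against fed in either phase. The falls included Msra (1.04 and 1.47) and Msrb2 (0.66 and 1.05), which repair oxidised methionine, the peroxide-removing Prdx1 (0.57 and 0.88) and mitochondrial Prdx3 (0.39 and 1.22), and the iron-sulfur glutaredoxin Glrx5 (0.53 and 1.32). The rise in phase 2 was that of Sesn1 (0.58), a FOXO and p53 target, which reached 1.67 in phase 3. Glrx, the cytosolic glutaredoxin, was -0.60 in phase 2 without passing the test and rose by 1.76 in phase 3. The other rises in phase 3, named after their values were seen, were those of Prdx6 (0.62), Txnl1 (0.25) and Srxn1 (0.38), the last of which was lost when fed rat 3, fed rat 4 or phase 3 rat 3 was left out.

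Among 12 measured genes for proteins that Txnip is known to bind or be regulated by, 2 rose and 6 fell in phase 2, and 3 rose and 5 fell in phase 3. Prkaa2, the other catalytic subunit of AMPK, named after its values were seen, went against Prkaa1 and fell by 0.94 in phase 2 (limma, Benjamini-Hochberg adjusted p = 0.012), and it was -0.34 in phase 3 without passing the test. Beside Prkaa1, the cell cycle inhibitor Cdkn1b rose by 0.66 and 1.08. Ddit4, a stress-induced brake on mTORC1 whose protein binds Txnip, was 0.59 ± 0.296 in phase 2 (limma, Benjamini-Hochberg adjusted p = 0.171) and rose by 2.81 in phase 3. It also belongs to the glucocorticoid-induced list. The importin gene Kpna2 fell by 0.95 and 1.09, and Akt2, the insulin-signalling kinase that phosphorylates Txnip, fell by 0.58 and 1.58. Pycard, an adaptor of the inflammasome, to which Txnip is linked, fell by 0.66 and 0.94. The other falls in phase 3 were those of Akt1 and Usp5, both lost with centred arrays, so that 3 genes rather than 5 then fell. The Usp5 call was also lost when fed rat 4, phase 3 rat 1 or phase 3 rat 2 was left out.

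The membrane proteins that alpha-arrestins are known to take up showed no common direction, with 3 of 14 measured genes higher and 4 lower in phase 2, and 4 higher and 4 lower in phase 3. These are 7 and 8 of 14, where 25.2% and 45.4% of all genes were called. Slc2a4, the insulin-dependent glucose transporter GLUT4, fell by 1.88 in phase 2 and by 1.40 in phase 3. Slc2a1, encoding GLUT1, was 0.18 in phase 2 (limma, Benjamini-Hochberg adjusted p = 0.337) and rose by 1.12 in phase 3. The insulin receptor gene Insr, whose protein Arrdc3 is known to bind, rose by 1.12 and 1.55. The main beta-adrenergic receptor of rodent fat, Adrb3, was 0.59 ± 0.270 in phase 2 (adjusted p = 0.138) and fell by 1.39 in phase 3, when Arrdc3 was highest. Adrb3 is also on the list of adipocyte markers. Itgb4, the integrin that Arrdc3 is known to bring to degradation, rose by 0.56 and 0.59, and Egfr fell by 0.41 and 0.70; both were named after their values were seen. The thrombin receptor gene F2r rose by 0.87 in phase 2 and was 0.43 in phase 3 (adjusted p = 0.0294), a call that was lost in the fit of only these 2 groups, when either fed rat 1 or fed rat 4 was left out, and when any phase 3 rat but rat 3 was.

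Of 12 measured genes for NEDD4-type ligases and their helpers, the partners of the PPxY motifs, 2 rose and 2 fell in phase 2, and 6 rose and 2 fell in phase 3. The 4 of 12 called in phase 2 lie near the 25.2% of all genes, and the 8 of 12 in phase 3 stand beside 45.4%. Nedd4 itself was 0.19 in phase 2 and -0.10 in phase 3, and neither value passed the test. Wwp1 rose by 0.75 in phase 3, Itch by 0.41, Smurf1 by 0.52, Nedd4l by 0.36 and Hecw2 by 1.07; the Nedd4l call was lost without phase 3 rat 4. The adaptor Ndfip1 (0.43) and the ubiquitin-activating enzyme Uba1 (0.34) fell in phase 3. The phase 2 counts were thin: 1 gene rather than 2 rose when fed rat 3, fed rat 4, phase 2 rat 1, phase 2 rat 2 or phase 3 rat 4 was left out, and 1 rather than 2 fell when fed rat 4 or phase 2 rat 2 was.

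Of 17 measured genes of the ESCRT machinery, with which Arrdc1 buds vesicles, 6 rose and 6 fell in phase 3, where 45.4% of all genes were called. Tsg101, the direct partner of Arrdc1, was -0.07 in phase 2 (not called) and rose by 0.24 in phase 3 (limma, Benjamini-Hochberg adjusted p = 0.00937), when Arrdc1 was lower than fed as deposited. Stam (0.73) and Hgs (0.41), which bind ubiquitinated cargo, rose in phase 3, while Vps28 (0.63), Snf8 (0.57) and Chmp6 (0.50) fell. In phase 2 limma called 4 lower and 0 higher, with 0 higher also at an unadjusted p below 0.05, a share near the 25.2% of all genes. That count of 4 became 2 with centred arrays, after quantile normalisation and with the replicate number as a block, and also when phase 2 rat 2 or any fed rat but rat 2 was left out. The Chmp6 calls were lost with the mean of its probe sets (adjusted p = 0.0993 in phase 2 and 0.113 in phase 3).

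Calls among the other arrestins depended on the scaling. In phase 3 against fed 1 of 7 measured was higher as deposited and 4 were with centred arrays, and 0 to 2 were with 1 rat left out. As deposited, the retromer subunit gene Vps26b, whose protein has an arrestin fold, fell by 0.30 in phase 2 and by 0.72 in phase 3, and its relative Vps26a rose by 0.27 in phase 3. The Vps26b call in phase 2 was lost without fed rat 2 or phase 2 rat 2, and that of Vps26a when fed rat 3, phase 3 rat 2 or phase 3 rat 4 was left out. Arrb1 and Arrb2, the beta-arrestins that turn off hormone receptors, were not called against fed in either phase. Arrdc5, the last alpha-arrestin of the rat and not among the 5 genes followed here, had levels of 4.69, 4.75, 4.80 and 5.02 in fed rats, 4.81, 4.87, 4.76 and 4.85 in phase 2 and 4.93, 4.85, 5.02 and 5.14 in phase 3. These overlap between groups and lie in the range of the olfactory receptor genes. Phase 3 minus fed was 0.17 ± 0.0887 for Arrdc5 (limma, Benjamini-Hochberg adjusted p = 0.132), and it passed with centred arrays (0.00801), as did Arr3 and Sag, and without fed rat 4 (0.043). Arr3, with a fed mean of 3.78, also lies in the range of the olfactory receptor genes.

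The fat pads also differed in the levels of cell type markers, and in bulk tissue fewer cells of a type and less RNA per cell cannot be told apart. The 10 measured adipocyte markers averaged 11.59 to 11.70 in fed rats, 11.39 to 11.54 in phase 2 and 9.42 to 10.32 in phase 3, with 2 higher and 1 lower than fed in phase 2 and 9 lower in phase 3. Fibroblast and progenitor markers (10 measured) went from 10.87 to 11.06 in fed rats to 10.08 to 10.43 and then 8.75 to 9.30, with 5 lower in phase 2 and 9 lower and 1 higher in phase 3. In phase 2 the median change of the adipocyte markers was 0.11, and the lower mean rests on few of them. Arrdc3 and Txnip were thus higher in phase 2 with most adipocyte markers not called, and in phase 3 with most of them lower.

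Smooth muscle markers (10 measured) averaged 8.07 to 8.68 in fed rats, 9.06 to 9.89 in phase 2 and 8.99 to 9.61 in phase 3, with 10 and then 9 higher. Endothelial markers (11 measured) averaged 9.10 to 9.22, 9.45 to 9.72 and 9.42 to 9.57, with 8 higher in phase 2, and 6 higher and 1 lower in phase 3. Macrophage markers (12 measured) averaged 8.94 to 9.19, 9.14 to 9.46 and 9.21 to 9.69, with 3 higher in phase 2, and 5 higher and 2 lower in phase 3. In phase 2 their median change was -0.05 and 9 were not called, so the higher mean rests on few of them. Mesothelial markers (6 measured) averaged 8.39 to 8.68, 7.75 to 8.09 and 7.23 to 7.71, with 5 and then 4 lower. Both smooth muscle and endothelial means stood above fed in each fasted rat, as Txnip and Arrdc3 did. The part of these cell types in the changes of the 5 genes was not tested.

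T and NK cell markers (11 measured) averaged 5.61 to 5.79 in fed rats, 5.75 to 5.997 in phase 2 and 5.40 to 5.67 in phase 3, with 4 lower in phase 3. These averages lie in the range of the olfactory receptor genes (highest 6.03), although single markers such as Cd4, at 9.58 in fed rats, lie above it. The labels name adipose tissue everywhere except in the extraction protocol, which speaks of liver. The 11 hepatocyte markers averaged 4.63 to 4.95 over all 12 rats, in the range of the olfactory receptor genes. Among them Alb, at 8.33 in fed rats, 9.62 in phase 2 and 6.73 in phase 3, and Apoc3, at 7.17, 5.84 and 6.47, reached above that range, and the other 9 had group means within it. The tissue was taken as fat, as the other labels say.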

How the data were processed

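The 12 arrays, 1 per rat, were grouped by their titles. The values are log2 levels per probe set that the authors deposited after RMA (background correction, quantile normalisation, probe summary), per the submitters' processing notes, which also name GCOS and Affymetrix Expression Console 1.1. Other settings are not given in the sources used here. Scan dates and detection calls were not used here. The table held 29215 probe sets, of which 15310 name 1 gene, 323 several and 13582 none. The brightest probe set by mean stood for each of the 14506 genes, and 14481 matched RefSeq GRCr8 by Entrez number, with 0 symbols changed. The array medians over all probe sets lay between 6.026 and 6.1319, and those over the tested genes between 6.7882 and 6.9951. The number of arrays limits the precision.

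All 12 arrays entered 1 model with a mean per group (lmFit and eBayes, limma 3.58.1 in R 4.3.3), tested on simulated data. P-values were Benjamini-Hochberg adjusted over all genes. Exact permutation tests, list counts and plots used Python 3.11.15, pandas 2.3.3 and matplotlib 3.10.9. The members, 9 function lists and 8 marker lists were chosen with earlier results of these data known. Named genes were the members, a set of key regulators and partners, up to 3 called genes with the smallest adjusted p per list and comparison, and the 3 genes most like each called member. Genes outside this rule were added where a count was small. The alternatives were 21 settings: 3 scalings (medians, quantile, cyclic loess), a fit without the dimmest 40% of genes, only the 2 groups compared, an intensity trend with robust prior, the mean of the probe sets, each probe set by itself, the replicate number as a block, and each of 12 rats left out. Same-numbered rats did not deviate together (correlations of -0.1547 to 0.1881 over 12 pairs, 4 of them above 0.1), so the numbers were not taken as pairs.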

Additional observations from a re-analysis of the deposited data

Results flagged for a closer look

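In 18 groups of 4 rats (6 genes in 3 groups, Arrdc5 included), a highest or lowest rat far from the others was sought with Dixon's ratio, the gap to the nearest rat over the range of the group. Chance flags about 1 in 20 such groups, and 2 of 18 passed the 95% critical value for groups of 4. For Txnip, phase 2 rat 3 had a log2 level of 13.2238, with the next rat at 13.2599 and a ratio of 0.845. That group spans only 0.0427, so the gap is small beside the rise from fed. For Arrdc2, phase 2 rat 2 had 6.6639, with the next rat at 6.9094 and a ratio of 0.889, and this is the rat that lay among the fed rats.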

How the results depend on the processing

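Of 315 values of the 5 genes under the 21 alternatives, 306 kept their side of the threshold, and every called change kept its sign. The uncalled Arrdc4 value in phase 3 minus fed, -0.0357, turned positive with centred arrays (0.1194), after quantile normalisation (0.0433) and without fed rat 2 (0.0611) or phase 3 rat 1 (0.0136). Arrdc2 in phase 2 minus fed came to 0.331 (adjusted p 0.0409) with centred arrays and 0.266 with only the 2 groups compared (0.0366), both past the threshold, and to 0.2152 to 0.33 with 1 rat left out, where it passed without phase 3 rat 3. Arrdc1 in phase 3 minus fed came to -0.0844 (0.328) with centred arrays and -0.1607 (0.106) after quantile normalisation, and to -0.2751 to -0.2029 with 1 rat left out, where the call was lost without fed rat 1. With centred arrays Txnip in phase 3 minus phase 2 was 0.2648 (0.0207) and Arrdc2 was 0.3384 (0.0314), both past the threshold; Arrdc2 ran from 0.1539 to 0.3324 with 1 rat left out and passed without phase 3 rat 1. Centring used the medians of the tested genes, whose group means shifted by -0.065 in phase 2 and -0.1551 in phase 3 against fed. Between phase 2 and phase 3 the shift was -0.0901. Centring takes this shift off the change of every gene alike. Medians over all probe sets ran from 6.026 to 6.0908 in fed rats and from 6.0295 to 6.1319 in phase 3. Other causes were not tested. Counts over all genes stayed within 1.5 times, at 2850 to 4354, 5659 to 8785 and 3347 to 4798 in the 3 comparisons. After quantile normalisation all 30 pair tests kept their direction and their side of the threshold. With 1 rat left out the pair differences were not tested; among those that had not passed, Txnip minus Arrdc2 in phase 3 minus phase 2 (-0.0736) then reached 0.0441, and Arrdc2 minus Arrdc4 in phase 2 minus fed (0.0582) reached -0.0635, and the other 28 kept their sign. Of 864 list counts, 55 moved by more than 1.5 times. Of 263 calls of genes on the lists or named, 202 held under all alternatives.

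With the replicate block, limma called 3539, 6526 and 3995 genes in the 3 comparisons against 3649, 6589 and 4046 without it, and no call of the 5 genes changed. Same-numbered rats correlated no more than the others (other pairs -0.2529 to 0.2762), so they share only a number.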
